A study of Mus musculus with 8 samples.

Results

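The 10 genes described here code for 4 matrix metalloproteinases (Mmp2, Mmp3, Mmp13 and Mmp14), 3 ADAMTS proteinases (Adamts1, Adamts4 and Adamts5) and 3 tissue inhibitors of metalloproteinases (Timp1, Timp2 and Timp3). They were chosen by name, from 22180 genes that the arrays read through a probe set of their own. Each of the 10 had 1 probe set that carried its symbol alone, and all 10 passed the filter on low levels, a mean over the 8 arrays of at least 6.21 on the log2 scale. Expression was measured on Affymetrix arrays in annulus fibrosus, the fibrous ring of the intervertebral disc, taken from the thoracic spine of mice of the strain given as Black 6. The 4 groups of 2 arrays were WT mice at 2 months, ENT1-null mice at 2 months, WT mice at 6 months and ENT1-null mice at 6 months. The ENT1-null mice lacked exons 2 to 4 of Slc29a1, which codes for equilibrative nucleoside transporter 1 (ENT1), a carrier that moves adenosine across the cell membrane. The labels name no promoter or cell type for that deletion. Each array held RNA pooled from 5 to 6 annulus tissues and is called a pool here, with the replicate number of its label. The sources used here do not say how many mice gave the tissues, or whether the pools of a group shared mice. The p-values therefore measure only the spread between these pools, which may be technical.

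Matrix metalloproteinases (MMPs) are zinc proteinases, made mostly as inactive precursors, that cut collagens, proteoglycans and other proteins around cells. ADAMTS proteinases are secreted relatives with thrombospondin repeats, and Adamts4 and Adamts5 are known as the aggrecanases, because they cut aggrecan, the proteoglycan that holds water in cartilage and in the disc. TIMPs are small secreted proteins that bind the active site of these proteinases, and loss of balance between the proteinases and their inhibitors is a known feature of disc degeneration. RNA levels show neither the activation of a precursor nor the activity of an enzyme.

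Slc29a1 itself was read at 10.71 and 10.69 (log2) in the 2 month WT pools, at 9.21 and 9.36 in the 2 month ENT1-null pools, at 10.34 and 10.43 in the 6 month WT pools and at 8.90 and 8.80 in the 6 month ENT1-null pools, so every array matched its genotype label. Medians of the 8 arrays lay between 6.77 and 6.82, and Pearson r over the genes was 0.983 to 0.984 between the arrays of a group and at least 0.835 between any pair. Of the markers of annulus and tendon cells (Col1a1, Fmod, Mkx, Scx, Tnmd and others) all 7 were above the filter, with a mean level of 9.56 to 10.15 per array, and so were all 8 chondrocyte markers. Markers of other cells were present too. The mean of 13 neutrophil markers ran from 8.31 to 9.88 in the 4 WT arrays, was 10.56 and 10.90 in the 2 month ENT1-null pools and 11.65 and 11.60 in the 6 month ENT1-null pools. Erythroid markers (mean of 4) ran from 7.60 to 8.79 in WT and from 9.28 to 10.68 in ENT1-null arrays. Skeletal muscle markers (mean of 9) were at 7.78 and 9.13 at 2 months in WT, 8.69 and 10.29 in ENT1-null, 10.25 and 10.09 at 6 months in WT, and 7.25 and 8.40 in ENT1-null. At 6 months 8 of the 9 muscle markers were lower in ENT1-null (median −2.35), a count of 0 without pool 1 of that age of either genotype and of 1 without WT pool 2 of that age. The mean of 8 chondrocyte markers was 10.48 and 10.55 at 2 months in WT, 10.09 and 10.41 in ENT1-null, 9.96 and 10.04 at 6 months in WT, and 9.25 and 9.18 in ENT1-null. For the members, the gap between the arrays of a group was widest in the 2 month WT group, with a median of 0.36 and a largest gap of 1.03 (Mmp2), against a median of 0.12 and a largest gap of 0.21 in the 6 month WT group.

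The promoters of 2 MMPs and 2 TIMPs are shown because Mmp13, Timp1 and Timp2 gave the clearest differences below and Mmp3 lies in the same MMP gene cluster as Mmp13. RefSeq's table (build GRCm38.p6) held a window for 7 of the 10 genes, and the 250 bases before the gene's start are printed 5′ to 3′ on the gene's strand. Capitals mark matches, on either strand, to 3 motifs, and no match overlapped another. The AP-1 motif, which Fos and Jun proteins bind, was searched as TGANTCA. The RUNX motif, which Runx factors of cartilage and bone bind, was searched as TGTGGT on both strands. The TATA box, which helps to place the start of transcription, was searched as TATAAA, and the AP-1 and TATA box motifs were also searched on both strands. Mmp13 lies on the plus strand at chr9:7272264-7272513, Mmp3 on the plus strand at chr9:7445572-7445821, Timp1 on the plus strand at chrX:20869916-20870165 and Timp2 on the minus strand at chr11:118355412-118355661.
Mmp13 promoter: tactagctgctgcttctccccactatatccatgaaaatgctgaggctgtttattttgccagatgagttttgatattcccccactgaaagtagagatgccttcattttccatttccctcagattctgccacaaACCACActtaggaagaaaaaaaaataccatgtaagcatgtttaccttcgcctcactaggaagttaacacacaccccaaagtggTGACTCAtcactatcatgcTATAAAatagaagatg
Mmp3 promoter: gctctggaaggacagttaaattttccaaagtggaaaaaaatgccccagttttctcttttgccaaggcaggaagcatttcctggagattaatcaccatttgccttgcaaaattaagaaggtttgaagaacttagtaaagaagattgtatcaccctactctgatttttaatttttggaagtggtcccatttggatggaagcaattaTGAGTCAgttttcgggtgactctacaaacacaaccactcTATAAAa
Timp1 promoter: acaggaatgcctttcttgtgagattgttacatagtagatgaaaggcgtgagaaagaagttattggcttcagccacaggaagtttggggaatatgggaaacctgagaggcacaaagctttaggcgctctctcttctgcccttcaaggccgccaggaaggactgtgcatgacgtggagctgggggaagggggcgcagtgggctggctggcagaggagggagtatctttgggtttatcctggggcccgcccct
Timp2 promoter: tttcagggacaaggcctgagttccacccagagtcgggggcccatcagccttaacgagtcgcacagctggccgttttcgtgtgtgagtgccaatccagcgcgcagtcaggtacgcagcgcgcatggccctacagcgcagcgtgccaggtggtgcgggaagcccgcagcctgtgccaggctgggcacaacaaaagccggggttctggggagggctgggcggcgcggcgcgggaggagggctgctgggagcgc
The Mmp13 window holds 1 match to each of the 3 motifs, and the Mmp3 window holds an AP-1 match and a TATA box match. Neither TIMP window holds any of the 3. Among all 32851 RefSeq windows of this length the AP-1 letters occur in 6.75%, the RUNX letters in 14.0% and the TATA box letters in 12.4%. Over the 7 members with a window, AP-1 letters were found in 2 (Mmp3 and Mmp13), RUNX letters in 2 (Mmp13 and Mmp14) and TATA box letters in 3 (Mmp3, Mmp13 and Adamts1). The share of G and C was 37.6% in the Mmp3 window, 40.4% in that of Mmp13, 54.4% in that of Timp1 and 68.0% in that of Timp2, beside a median of 52.4% over all windows. These matches describe letters and are not evidence that a factor binds there.

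The first question was how ENT1-null annulus differed from WT at each age. All differences are ENT1-null minus WT on the log2 scale with the SE of the limma fit (n = 2 and 2 arrays), the Benjamini-Hochberg adjustment of p ran over all 15526 genes tested, and a gene passed at an adjusted p below 0.05. At 6 months Mmp13 and Timp1 rose and Adamts1, Timp2 and Timp3 fell, so 5 of the 10 members passed, where 38.8% of all genes tested passed (21.2% higher and 17.6% lower). At 2 months Timp1 alone passed, 1 of 10 members, where 0.683% of all genes passed (0.296% higher). The median difference of the members was 0.25 at 2 months and 0.21 at 6 months, beside −0.04 and −0.03 over all genes tested. The arrays of the groups did not overlap for 6 of the 10 members at 2 months (52.3% of all genes) and for 8 at 6 months (72.3% of all genes), so lack of overlap was common at both ages. In pooled tissue, fewer cells of a type and less RNA per cell cannot be told apart in any of these values.

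**Figure D1:**
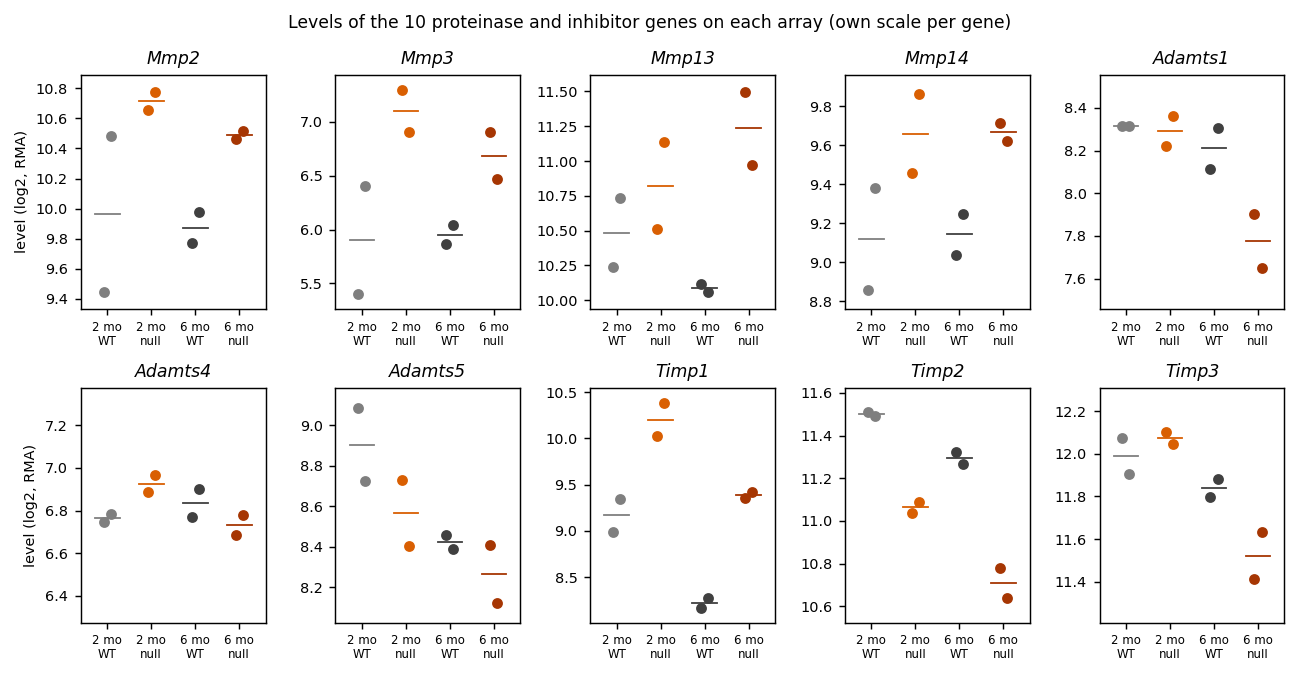
Level of each of the 10 genes on each array (log2, RMA), with 1 panel per gene, 1 point per array and a line at the mean of each group of 2 arrays; panels have their own vertical range, since levels of different probe sets are not comparable. Timp1 is higher and Timp2 lower in ENT1-null than in WT arrays of the same age at both ages, while the Mmp13 arrays overlap at 2 months and separate at 6 months.

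Mmp13, collagenase-3, which cuts fibrillar collagen of cartilage and bone, was read at 10.24 and 10.73 in the 2 month WT pools, at 10.51 and 11.13 in the 2 month ENT1-null pools, at 10.11 and 10.06 in the 6 month WT pools and at 11.50 and 10.97 in the 6 month ENT1-null pools. The 2 month groups overlapped, the 6 month groups did not, and the 6 month ENT1-null pools were also 0.53 apart. Mmp13 was 1.15 ± 0.26 higher in ENT1-null at 6 months, or 2.22-fold (limma adjusted p = 0.0103), against 0.34 ± 0.26 at 2 months (limma adjusted p = 0.511). The difference between these effects, 0.81 ± 0.36, did not pass (limma adjusted p = 0.202). Its call at 6 months ended without ENT1-null pool 1 of 6 months (0.89, limma adjusted p = 0.0638) and without WT pool 2 of 6 months (1.12, limma adjusted p = 0.0533). Markers of hypertrophic chondrocytes, enlarged cartilage cells, averaged 9.50 and 9.58 in 6 month WT pools and 8.90 in both 6 month ENT1-null pools. Of 4 tested, 1 was lower and none higher. Markers of osteoblasts, the bone-forming cells, averaged 8.94 and 9.14 in 6 month WT pools and 9.28 and 9.03 in ENT1-null pools of that age. Of 6 tested, 2 were higher and 2 lower. Markers of neutrophils (13 of 13 tested), erythroid cells (4 of 4) and macrophages (7 of 8) were higher in ENT1-null at 6 months. The part of any of these cells, or of osteoclasts, in the Mmp13 level was not tested. Markers of osteoclasts, the bone-resorbing cells, were higher as well, with a mean of 7.79 and 7.83 in the 6 month WT pools. In the 6 month ENT1-null pools their mean was 9.05 and 8.55, and 6 of 6 tested markers were higher. That marker count was 1 without WT pool 1 of 6 months or ENT1-null pool 1 of 6 months and 2 without WT pool 2 of 6 months.

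Mmp3, stromelysin-1, which cuts proteoglycans and activates other MMP precursors, was read at 5.40 and 6.40 in the 2 month WT pools, at 7.29 and 6.90 in the 2 month ENT1-null pools, at 5.86 and 6.04 in the 6 month WT pools and at 6.90 and 6.47 in the 6 month ENT1-null pools. Every ENT1-null array lay above every WT array, although the WT levels were near or below the filter of 6.21. The difference was 1.20 ± 0.31 at 2 months (limma adjusted p = 0.101) and 0.73 ± 0.31 at 6 months (limma adjusted p = 0.0995), and neither passed. Mmp14, the membrane-bound collagenase that activates the Mmp2 precursor, was read at 8.86 and 9.38 in the 2 month WT pools, at 9.46 and 9.86 in the 2 month ENT1-null pools, at 9.04 and 9.25 in the 6 month WT pools and at 9.71 and 9.62 in the 6 month ENT1-null pools. Here too every ENT1-null array lay above every WT array. Mmp14 differed by 0.54 ± 0.19 at 2 months (limma adjusted p = 0.191) and by 0.52 ± 0.19 at 6 months (limma adjusted p = 0.0677).

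Mmp2, gelatinase A, which degrades denatured collagen, was read at 9.45 and 10.48 in the 2 month WT pools, at 10.66 and 10.77 in the 2 month ENT1-null pools, at 9.77 and 9.98 in the 6 month WT pools and at 10.46 and 10.52 in the 6 month ENT1-null pools. The ENT1-null arrays lay above the WT arrays of their age at both ages, and WT pool 2 of 2 months reached the level of the 6 month ENT1-null pools. Mmp2 differed by 0.75 ± 0.28 at 2 months (limma adjusted p = 0.209) and by 0.62 ± 0.28 at 6 months (limma adjusted p = 0.125). For Mmp2, Mmp3 and Mmp14 the 2 month WT pools stood 1.03, 1.00 and 0.52 apart, and that gap enters the spread used at both ages. Without WT pool 2 of 2 months, Mmp2 (1.27, limma adjusted p = 0.0273) and Mmp3 (1.69, limma adjusted p = 0.0318) passed at 2 months. Without WT pool 1 of 2 months the differences at 2 months shrank to 0.23 for Mmp2 (limma adjusted p = 0.584) and 0.70 for Mmp3 (limma adjusted p = 0.365). At 6 months, Mmp2, Mmp3 and Mmp14 did not pass in the fit over all groups, and all 3 passed in a fit of the 4 arrays of 6 months alone (limma adjusted p = 0.00954, 0.0221 and 0.0174) and in the fits without either 2 month WT pool. Mmp14 also passed at 6 months with the replicate number as a block (limma adjusted p = 0.0364).

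**Figure D2:**
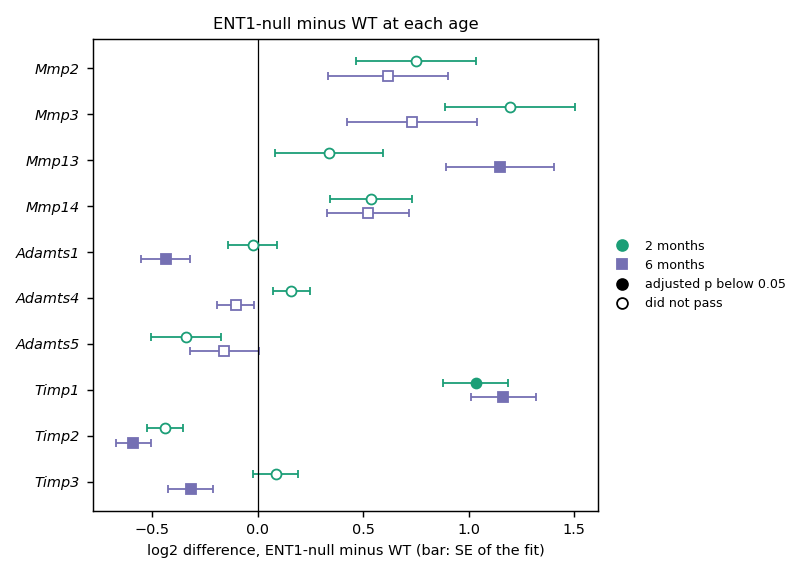
Difference between ENT1-null and WT for each of the 10 genes at 2 and at 6 months (log2, points, with bars of 1 SE of the limma fit), with filled points for an adjusted p below 0.05. At 6 months Mmp13 and Timp1 lie above 1 and Timp2, Adamts1 and Timp3 below 0, while at 2 months only the Timp1 point is filled.

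None of the 3 ADAMTS proteinases passed as higher in ENT1-null at either age. Adamts1, which cuts aggrecan and versican and has a known role in ovulation and vessel growth, was read at 8.31 and 8.31 in the 2 month WT pools, at 8.22 and 8.36 in the 2 month ENT1-null pools, at 8.11 and 8.31 in the 6 month WT pools and at 7.90 and 7.65 in the 6 month ENT1-null pools. The 6 month ENT1-null pools were the lowest of the 8. Adamts1 fell by 0.43 ± 0.12 at 6 months (limma adjusted p = 0.021) and differed by −0.02 ± 0.12 at 2 months (limma adjusted p = 0.94). The difference between these effects was −0.41 ± 0.16, with an unadjusted p of 0.0371 and a limma adjusted p of 0.159. Its 6 month call ended without ENT1-null pool 2 of 6 months (−0.31, limma adjusted p = 0.102) and without WT pool 2 of 6 months (−0.34, limma adjusted p = 0.128).

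Adamts5, the aggrecanase held to be the main one in mouse cartilage, was read at 9.09 and 8.72 in the 2 month WT pools, at 8.73 and 8.40 in the 2 month ENT1-null pools, at 8.46 and 8.39 in the 6 month WT pools and at 8.41 and 8.12 in the 6 month ENT1-null pools. The groups overlapped at both ages, and the difference was −0.34 ± 0.16 at 2 months (limma adjusted p = 0.311) and −0.16 ± 0.16 at 6 months (limma adjusted p = 0.481). Adamts4, the other aggrecanase, was read at 6.75 and 6.79 in the 2 month WT pools, at 6.89 and 6.97 in the 2 month ENT1-null pools, at 6.77 and 6.90 in the 6 month WT pools and at 6.69 and 6.78 in the 6 month ENT1-null pools. All 8 Adamts4 values lay within 6.69 to 6.97, a narrow range close to the filter. Its difference was 0.16 ± 0.087 at 2 months (limma adjusted p = 0.367) and −0.10 ± 0.087 at 6 months (limma adjusted p = 0.384).

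At 6 months Timp1 rose while Timp2 and Timp3 fell. Timp1, an inhibitor that is known to be induced by inflammatory and growth signals, was read at 8.99 and 9.35 in the 2 month WT pools, at 10.02 and 10.39 in the 2 month ENT1-null pools, at 8.17 and 8.27 in the 6 month WT pools and at 9.36 and 9.42 in the 6 month ENT1-null pools. The 2 month ENT1-null pools were the highest and the 6 month WT pools the lowest, and the groups in between, 2 month WT and 6 month ENT1-null, nearly touched. Timp1 rose by 1.03 ± 0.15 at 2 months, or 2.05-fold (limma adjusted p = 0.0443), and by 1.16 ± 0.15 at 6 months, or 2.24-fold (limma adjusted p = 0.00109). The 6 month call held in all 18 alternatives, whereas the 2 month call held in 9. It ended without WT pool 1 of 2 months (0.86), ENT1-null pool 1 of 2 months (1.22), ENT1-null pool 2 of 2 months (0.85) or either 6 month ENT1-null pool, with no filter, with all probe sets, with the replicate block (limma adjusted p = 0.066) and with only the groups compared. The mean of the neutrophil markers given above was higher in ENT1-null at both ages, with 0 of 13 passing at 2 months and 13 of 13 at 6 months, and their part in the Timp1 level was not tested. By age in ENT1-null these markers had a median difference of 0.92, with 2 of 13 passing as higher and 11 not passing. The Timp1 difference by age is given below.

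Timp2, which inhibits MMPs and also helps Mmp14 to activate the Mmp2 precursor, was read at 11.51 and 11.49 in the 2 month WT pools, at 11.04 and 11.09 in the 2 month ENT1-null pools, at 11.33 and 11.27 in the 6 month WT pools and at 10.78 and 10.64 in the 6 month ENT1-null pools. The 4 groups followed one another without overlap, from 2 month WT at the top to 6 month ENT1-null at the bottom. Timp2 fell by 0.59 ± 0.085 at 6 months, a 1.50-fold lower level (limma adjusted p = 0.00155), and this call held in all 18 alternatives. Its 2 month difference of −0.44 ± 0.085 did not pass (limma adjusted p = 0.0597), and it passed with eBayes run with trend and robust (limma adjusted p = 0.038).

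Timp3, the inhibitor that is bound to the matrix and blocks the aggrecanases as well as MMPs, was read at 12.08 and 11.90 in the 2 month WT pools, at 12.10 and 12.05 in the 2 month ENT1-null pools, at 11.80 and 11.88 in the 6 month WT pools and at 11.41 and 11.63 in the 6 month ENT1-null pools. The 6 month ENT1-null pools were the lowest, and the 2 month groups overlapped. Timp3 differed by 0.09 ± 0.11 at 2 months (limma adjusted p = 0.699) and fell by 0.32 ± 0.11 at 6 months, just past the threshold (limma adjusted p = 0.0471). The difference between these effects was −0.40 ± 0.15, with an unadjusted p of 0.0283 and a limma adjusted p of 0.138. The 6 month call held in 6 of 18 alternatives, and it ended without any 1 of the 8 arrays other than ENT1-null pool 2 of 6 months. Chondrocyte markers (6 of 8 lower and none higher) and the skeletal muscle markers given above fell beside Timp2, Timp3 and Adamts1 at 6 months, and the part of either in these results was not tested.

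No member passed the test of the difference between the genotype effects at 6 and 2 months in limma, where 4.45% of all genes did. At an unadjusted p below 0.05 there were 2 members, Adamts1 and Timp3, and the count of members that passed was 0 in every alternative, eBayes with trend and robust included. A call at 6 months that was not made at 2 months is therefore not shown to be an effect of age on the genotype difference.

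The comparisons at 2 and at 6 months were then joined in 1 fit with terms for genotype and age, 4 WT against 4 ENT1-null arrays. It uses the same arrays as the comparisons above and is no separate evidence. All 4 MMPs and Timp1 were higher and Timp2 lower in ENT1-null, 6 of 10 members, where 24.5% of all genes passed (12.8% higher and 11.7% lower). Mmp3 reached the filter only through the ENT1-null arrays, since its WT groups had means of 5.90 and 5.95 against 7.10 and 6.69 for the ENT1-null groups, so its place in this count is no support for the group. Mmp3 differed by 0.96 ± 0.23 (limma adjusted p = 0.0219), Mmp13 by 0.74 ± 0.23 (0.0473), Mmp2 by 0.68 ± 0.20 (0.0397) and Mmp14 by 0.53 ± 0.13 (0.0267). Timp1 was higher by 1.10 ± 0.11 (limma adjusted p = 0.00514) and Timp2 lower, at −0.51 ± 0.067 (limma adjusted p = 0.00675). All 4 ENT1-null arrays lay beyond all 4 WT arrays for Mmp3, Mmp14, Timp1 and Timp2, 4 of 10 members, as for 23% of all genes. The members that did not pass were Adamts1 (−0.23, limma adjusted p = 0.157), Adamts5 (−0.25, 0.157), Timp3 (−0.12, 0.428) and Adamts4 (0.03, 0.808). In the same fit 13 of 13 neutrophil markers, 4 of 4 erythroid markers, 7 of 8 macrophage markers and 5 of 6 endothelial markers were higher in ENT1-null, and their part in the members' levels was not tested. The endothelial count was 0 without either 6 month WT pool, 1 without either 6 month ENT1-null pool or WT pool 1 of 2 months, and 2 without ENT1-null pool 2 of 2 months, and it was 3 with all probe sets. The neutrophil count was 7 without ENT1-null pool 1 of 6 months, and the macrophage count 4 without WT pool 1 of 6 months.

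The Timp1 and Timp2 calls across ages held in all 17 alternatives, and the MMP calls depended on single arrays. Without WT pool 1 of 6 months or ENT1-null pool 1 of 6 months no MMP passed and 2 members remained. Mmp3 passed without any 1 of the other arrays. Among the fits that left out 1 array, Mmp14 passed only without ENT1-null pool 1 of 2 months or WT pool 2 of 2 months, Mmp2 only without 1 or the other 2 month WT pool, and Mmp13 only without ENT1-null pool 1 of 2 months or WT pool 2 of 2 months. Mmp13 also failed with no filter, with all probe sets and with the replicate block, and Mmp2 with all probe sets.

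The next question was how the same genes differed between 2 and 6 months within a genotype, with differences given as 6 months minus 2 months. In ENT1-null annulus all 3 TIMPs and Adamts1 fell with age, 4 of 10 members, where 22.2% of all genes passed (10.2% lower). Timp1 fell by 0.82 ± 0.15 (limma adjusted p = 0.00995), Timp3 by 0.55 ± 0.11 (0.0105), Adamts1 by 0.52 ± 0.12 (0.0181) and Timp2 by 0.36 ± 0.085 (0.0225). The MMPs gave no call, with Mmp13 at 0.41 ± 0.26 (limma adjusted p = 0.301), Mmp14 at 0.01, Mmp2 at −0.23 and Mmp3 at −0.41. The aggrecanases Adamts4 (−0.19, limma adjusted p = 0.162) and Adamts5 (−0.30, 0.241) did not pass either. The median of the members was −0.33, beside −0.0049 over all genes tested, and the arrays did not overlap for 6 members (59.8% of all genes).

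Leaving out an array again moved this count. The Timp1 call held in all 18 alternatives, the Timp3 call ended without ENT1-null pool 1 of 2 months (−0.52), and the Adamts1 and Timp2 calls ended without that array, without ENT1-null pool 2 of 2 months and without ENT1-null pool 2 of 6 months. The Timp2 call also ended with all probe sets and with only the groups compared. Of the 8 chondrocyte markers 7 were lower at 6 than at 2 months in ENT1-null and none passed in WT, and their part in the fall of these genes was not tested.

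In WT annulus no member passed by age in limma, and none of the 15526 genes did (0%). At an unadjusted p below 0.05 there were 3 members and 2067 genes in all, and the count of members that passed was 0 in every alternative. The members below that level were Timp1 (−0.95 ± 0.15, limma adjusted p = 0.166), Adamts5 (−0.48 ± 0.16, 0.314) and Timp2 (−0.21 ± 0.085, 0.361). For 6 of 10 members the 6 month WT pools lay below the 2 month WT pools without overlap, and for none above, where 49.4% of all genes did not overlap (35.9% lower). The comparisons by age share arrays with those by genotype and are not independent of them. A call by age in ENT1-null and none in WT does not show that the genotypes aged differently, and the test of that difference is the one given above, which no member passed.

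**Figure D3:**
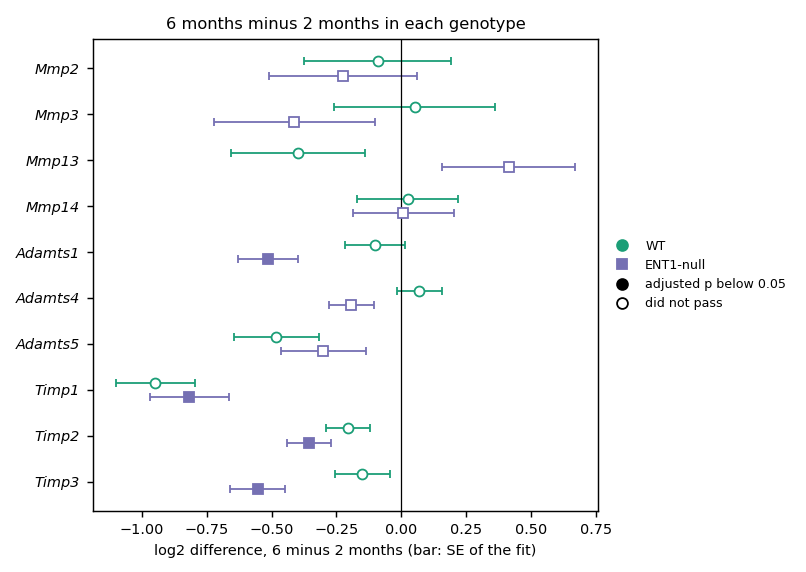
Difference between 6 and 2 months for each of the 10 genes in WT and in ENT1-null arrays (log2, points, with bars of 1 SE of the limma fit), with filled points for an adjusted p below 0.05. Timp1, Timp2, Timp3 and Adamts1 are filled and below 0 in ENT1-null, and no point is filled in WT.

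Genes that act with the members were read from lists, at 2 and 6 months. At 2 months no gene of these lists passed in the fit reported. With no filter Il1a, the cytokine interleukin-1 alpha, passed at 2 months (1.06 ± 0.14, limma adjusted p = 0.0488), where the WT pools read 5.03 and 5.25 and the ENT1-null pools 6.30 and 6.12. Without WT pool 2 of 2 months Mmp9 (1.76), Ctss (1.45) and Adam8 (1.00) passed at 2 months. The counts at 6 months that follow are to be read against the 38.8% of all genes that passed there (21.2% higher and 17.6% lower). At 6 months, of the other MMPs 6 rose, 1 fell and 6 did not pass, of 13 tested and 19 listed, and the median of the 13 was 0.31. Mmp15 was not read, and Mmp1a, Mmp1b, Mmp7, Mmp12 and Mmp20 were below the filter. Mmp25, a proteinase of the neutrophil membrane, rose by 2.08 ± 0.29 (limma adjusted p = 0.00131). Mmp9, gelatinase B, which neutrophils and osteoclasts carry, rose by 1.88 ± 0.38 (limma adjusted p = 0.00688). Mmp8, neutrophil collagenase, was read at 9.94 and 8.46 in the 6 month WT pools and at 11.60 and 11.69 in the 6 month ENT1-null pools, and rose by 2.45 ± 0.57 (limma adjusted p = 0.0121). All 3 genes and 13 of 13 neutrophil markers were higher in ENT1-null at 6 months. In the 6 month WT pools the mean of these markers was 9.88 and 8.31. Mmp25 (7.62 and 6.82) and Mmp8 were also lower in WT pool 2 than in pool 1, while Mmp9 was level (10.21 and 10.20). The part of neutrophils in these genes was not tested.

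The count of other MMPs that passed was 7, and it was 3 without WT pool 1 of 6 months, 2 without WT pool 2 of 6 months, 4 without either 6 month ENT1-null pool and 4 with a filter at the 50th percentile, which left 7 of the 13 genes to test. Mmp8 did not pass without WT pool 2 of 6 months (1.71, limma adjusted p = 0.0657), without ENT1-null pool 1 (limma adjusted p = 0.0524) or without ENT1-null pool 2 of that age (2.41, limma adjusted p = 0.057). The 13 neutrophil markers that passed were 6 without ENT1-null pool 1 of 6 months, 7 without ENT1-null pool 2 of 6 months and 8 without WT pool 2 of 6 months. On chromosome 9 the RefSeq gene table places 10 MMP genes next to each other, in the order Mmp13, Mmp12, Mmp1b, Mmp3, Mmp1a, Mmp10, Mmp8, Mmp27, Mmp20 and Mmp7. Of its 5 genes above the filter, Mmp13, Mmp8 and Mmp27 (0.30) rose at 6 months, Mmp10 fell (−0.40 ± 0.11, limma adjusted p = 0.0246) and Mmp3 did not pass. Mmp10 and Mmp27 were named after their values were seen. The Mmp10 call ended without either 6 month WT pool (−0.41 and −0.39) or ENT1-null pool 1 of 6 months (−0.27), and the Mmp27 call without any 1 of the 4 arrays of 6 months (0.25 to 0.36) or either 2 month WT pool. In all, the Mmp27 call held in 6 of 17 alternatives, and it also ended with no filter, with all probe sets, with the replicate block, with trend and robust and with only the groups compared.

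The other ADAMTS genes fell or did not pass at 6 months, with 0 higher, 5 lower and 6 not passing of 11 tested and a median of −0.19. Adamts9, named after its value was seen, went the other way without passing (0.45 ± 0.16, limma adjusted p = 0.0599). Across ages Adamts9 passed as higher (0.46 ± 0.11, limma adjusted p = 0.0238), where 1 of the 11 was higher and 1 lower. Adamts6 fell by 0.61 ± 0.080 (limma adjusted p = 0.00111), Adamts12, which cuts cartilage oligomeric matrix protein, by 0.47 ± 0.077 (0.0027) and Adamts3, a procollagen N-proteinase, by 0.52 ± 0.11 (0.00832). The 5 calls were 3 without WT pool 1 of 6 months, without ENT1-null pool 1 of 6 months or with a filter at the 50th percentile, and 2 without WT pool 2 of 6 months, where Adamts3 (−0.47) also did not pass. Adamts13 and Adamts16, which passed as lower in the fit reported, were below the filter at the 50th percentile and not tested there. Of the ADAMTS-like genes, which code for related matrix proteins with no proteinase domain, 3 of 6 fell and none rose, where 17.6% of all genes fell. Adamtsl4 fell by 0.85 ± 0.082 (limma adjusted p = 0.000461). Adamtsl3 (−0.40, limma adjusted p = 0.0133) and Adamtsl2 (−0.45, 0.0421) also fell, and 1 of the 3 calls was left without WT pool 1 of 6 months. The Adamtsl3 call ended as well without ENT1-null pool 1 of 6 months (−0.31), and the Adamtsl2 call held in 9 of 18 alternatives.

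Of other proteinase inhibitors and the receptor that clears them, 4 fell, none rose and 2 did not pass of 6 tested at 6 months. Reck, a membrane-anchored inhibitor of MMPs, fell by 0.83 ± 0.079 (limma adjusted p = 0.00045). Timp4, the TIMP that is not among the 10 members, was read at 9.63 and 9.98 in the 6 month WT pools and at 8.79 and 8.71 in the 6 month ENT1-null pools, and fell by 1.06 ± 0.20 (limma adjusted p = 0.00484). At 2 months Timp4 was read at 10.51 and 10.23 in WT and at 9.62 and 9.07 in ENT1-null, a difference of −1.03 ± 0.20 that did not pass (limma adjusted p = 0.0592). Lrp1, the endocytic receptor that takes up aggrecanases and TIMP3, fell by 0.45 ± 0.087 (limma adjusted p = 0.00584). The other gene that fell, Cst3 (−0.46, limma adjusted p = 0.0061, named after its value was seen), codes for cystatin C, an inhibitor of cysteine proteinases and not of the members. Among the inhibitors of both lists, Timp1 therefore rose at 6 months while Timp2, Timp3, Timp4 and Reck fell.

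**Figure D4:**
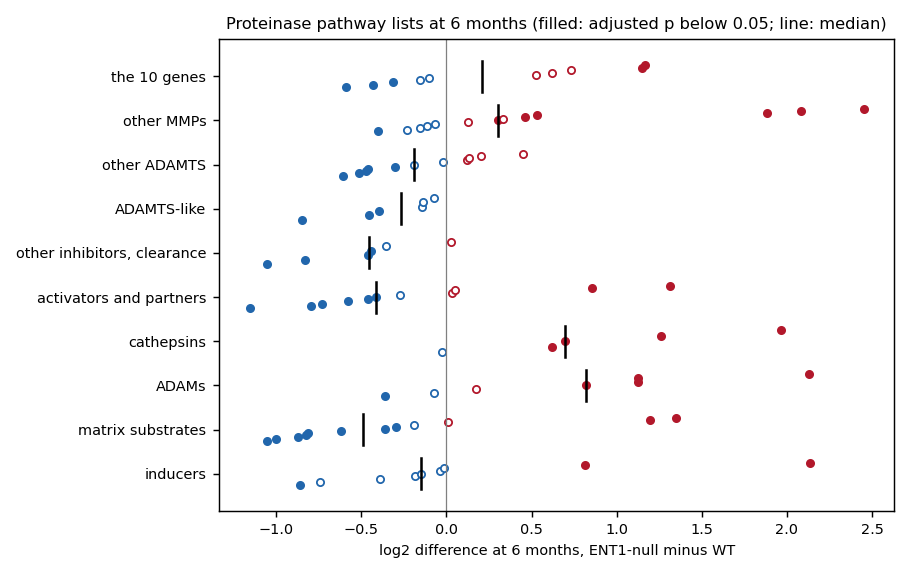
Difference between ENT1-null and WT at 6 months for every tested gene of each list (log2, 1 point per gene, filled for a limma adjusted p below 0.05), with a line at the list's median. The other ADAMTS, ADAMTS-like and inhibitor lists have no filled point above 0, while 6 of the 7 filled points of the other MMPs lie above 0.

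Of 11 activators and partners of MMPs, 2 rose, 6 fell and 3 did not pass at 6 months. Plau, urokinase, which turns plasminogen into plasmin, rose by 0.86 ± 0.11 (limma adjusted p = 0.00088), and its receptor Plaur by 1.31 (0.00176). Sdc4, a cell surface proteoglycan, fell by 0.80 ± 0.095 (limma adjusted p = 0.000772) and Pcsk6, a proprotein convertase, by 0.73 ± 0.091 (0.000897). Cathepsins, the lysosomal proteinases, rose in 4 of 5 cases and fell in none, with Ctss at 1.96 ± 0.24 (limma adjusted p = 0.000907), Ctsb at 0.70 (0.00197) and Ctsd at 0.62 (0.00501). Of the ADAMs, membrane-bound sheddases, 4 rose, 1 fell and 2 did not pass of 7. Adam8, a gene of leukocytes and osteoclasts, rose by 2.13 ± 0.23 (limma adjusted p = 0.00058), Adam19 by 1.13 ± 0.11 (0.000452) and Adam10 by 1.12 ± 0.12 (0.000533), and 3 of the 5 ADAM calls were left without WT pool 2 of 6 months. The other cathepsin that rose, Ctsk (1.26 ± 0.34, named after its value was seen), is also one of the osteoclast markers. Macrophage (7 of 8 tested), osteoclast (6 of 6) and neutrophil (13 of 13) markers were higher over the same arrays. The mean of the 9 macrophage markers, with Cd163 below the filter, was 7.63 and 7.71 in 6 month WT and 8.57 and 8.84 in ENT1-null. The part of any of these cells was not tested.

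The substrates of these enzymes mostly fell at 6 months, with 8 lower, 2 higher and 2 not passing of 12. Vcan, the proteoglycan versican, fell by 1.05 ± 0.097 (limma adjusted p = 0.000435), Hapln1, the link protein of aggrecan, by 1.00 ± 0.10 (0.000523) and Fmod, fibromodulin, by 0.87 ± 0.083 (0.00045). Acan, aggrecan itself, was read at 12.50 and 12.71 in the 6 month WT pools and at 12.09 and 11.87 in the 6 month ENT1-null pools. The Acan groups did not overlap, and it fell by 0.62 ± 0.11 (limma adjusted p = 0.00414). The 2 that rose, named after their values were seen, were Col1a1 (1.35 ± 0.33, limma adjusted p = 0.0143) and Col1a2 (1.19), which code for the chains of type I collagen. The Col1a1 call ended without ENT1-null pool 1 of 6 months (1.23) and without WT pool 2 of 6 months (1.24). Several of these genes are also chondrocyte markers, whose mean fell over the same arrays.

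Of the signals and factors known to induce MMPs, 2 rose, 1 fell and 6 did not pass of 9 tested at 6 months, a share that is below the 38.8% of all genes, while Il1a and Il6 were below the filter and Nfkb1 and Runx2 were not read. Il1b, the inflammatory cytokine interleukin-1 beta, was read at 7.14 and 6.86 in the 6 month WT pools and at 9.04 and 9.24 in the 6 month ENT1-null pools. It rose by 2.14 ± 0.21 (limma adjusted p = 0.000474), and Tnf, tumour necrosis factor, by 0.81 ± 0.10 (0.00094). Hif1a, the oxygen-regulated transcription factor, fell by 0.86 ± 0.089 (limma adjusted p = 0.000532). Neutrophils and macrophages are known sources of Il1b and Tnf, and the part of the markers of both in these values was not tested.

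Over the 8 arrays, the genes whose levels followed Mmp13 most closely were Tmem164 (Pearson r = 0.995), Enpp6 (0.988), which codes for a choline phosphodiesterase, and Msn (0.987), which codes for moesin, a linker of membrane and actin. Those closest to Adamts5 were Kdm5d (0.982), a histone demethylase gene, Fam221a (0.978) and Dennd5a (0.975). Their ranges over the arrays were narrow, from 8.27 to 8.64 for Kdm5d, 6.87 to 7.41 for Fam221a and 9.98 to 10.08 for Dennd5a. Closest to Timp3 were Bcl9 (0.979), a coactivator of Wnt signalling, Zfp827 (0.974) and Crtc1 (0.972), a coactivator of CREB. These are the highest values over the genes tested once predicted genes, those with Gm or Rik names, were passed over. The arrays share their groups, and the values are given as descriptions.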

How the data were processed

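The 8 arrays, 2 in each of 4 groups taken from the labels, measured RNA of thoracic annulus tissue. Per the submitters' processing notes the authors made the deposited log2 values by RMA, a method that subtracts background, makes quantiles equal between arrays and combines probes into probe sets. The array's genome build is not given in the sources used here, and probe sets were named through GEO's platform annotation (23521 of 41345 with 1 symbol, 1814 with several and 16010 with none). Quantile normalization removes shifts common to all genes. A gene's value is that of its brightest single-gene probe set, by the mean of all arrays. The filter removed genes below the 30th percentile of those means (6.21, log2) and kept 15526 of 22180.

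Models were fitted over all genes with limma 3.58.1 (lmFit and eBayes) in R 4.3.3, with 4 group means, or with genotype and age as terms. The Benjamini-Hochberg adjustment ran over all genes in each of 6 comparisons, and genes were called at an adjusted p below 0.05. The genes named were the 10 members and, in each list, the 3 with the largest moderated statistic at 6 months. Others were chosen after their values were seen, among them Plaur, Acan, Col1a1, Col1a2, Cst3, Mmp10 and Mmp27. For Mmp13, Adamts5 and Timp3, the 3 genes with the highest Pearson r over the 8 arrays were taken, passing over predicted genes (Gm and Rik names). The members and lists were chosen with earlier results of these data known. The fits were tested on simulated data. The 18 alternatives changed the filter, scaling, probe sets, block, eBayes options, arrays or threshold, 1 at a time. The number of arrays limits the precision, and no value was imputed.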

Additional observations from a re-analysis of the deposited data

How the results depend on the processing

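The settings tried left out the filter or raised it to the 50th percentile, repeated the quantile normalization, centred the arrays on their medians, averaged or kept apart a gene's probe sets, blocked on the replicate number, ran eBayes with trend and robust, fitted the compared groups alone, relaxed the adjusted p to below 0.1, or left out 1 array. At 2 months the count of members that passed (1) was 0 with no filter, with all probe sets, with the replicate block and with only the groups compared, and 2 with trend and robust or with adjusted p below 0.1. Leaving out 1 array gave 0 to 3 at 2 months, 2 to 7 at 6 months (5 in the fit reported), 2 to 6 across ages (6) and 1 to 4 by age in ENT1-null (4), and the other settings gave 4 to 7, 4 to 6 and 3 to 4 for the last 3. The highest count at 2 months was without WT pool 2 of 2 months. At 6 months the lowest were without WT pool 2 of 6 months (2) and ENT1-null pool 1 of 6 months (3). Across ages they were without pool 1 of 6 months of either genotype (2), and without pool 2 of 6 months of either genotype or ENT1-null pool 2 of 2 months (3). By age in ENT1-null they were without ENT1-null pool 1 of 2 months (1), pool 2 of 2 months (2) or pool 2 of 6 months (2). The count for the difference of the genotype effects and by age in WT was 0 under every setting run.

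Of the values for single members under an alternative, 951 kept direction and side of the threshold, 58 no longer passed, 16 passed in addition and 23 changed sign, most of the last near 0. Mmp14 changed sign in the difference of the genotype effects with centred arrays (0.0033, from −0.02) and by age in ENT1-null with quantile normalization again (−0.057, from 0.01). Without 1 array, sign changes lay within these ranges. At 2 months Adamts1 ran from −0.092 to 0.048 and Timp3 from −0.00025 to 0.17. In the difference of the genotype effects Mmp14 ran from −0.28 to 0.24, Mmp2 from −0.65 to 0.38, Mmp3 from −0.96 to 0.034, Adamts5 from −0.00086 to 0.36 and Timp1 from −0.051 to 0.31. Across ages Adamts4 ran from −0.014 to 0.081. By age in WT Mmp2 ran from −0.61 to 0.43, Mmp3 from −0.45 to 0.55 and Mmp14 from −0.24 to 0.28, and by age in ENT1-null Mmp14 ran from −0.20 to 0.21. The cause was not tested.

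Deviations of same-numbered arrays correlated at −0.395 to 0.415 between groups, with the highest value between WT and ENT1-null at 2 months. With 2 arrays in a group these values cannot tell whether replicate numbers pair the arrays. With the replicate block 5 members passed at 6 months, with Mmp14 gained and Timp3 lost. Over all genes, those called at 2 months were 46 higher and 60 lower, but 11 and 18 with no filter, 0 and 1 with the block, 124 and 135 with trend and robust, 497 and 326 with adjusted p below 0.1, 96 and 65 with centred arrays, and 0 with only the groups compared or with all probe sets. For the difference of the genotype effects, 398 and 293 became 7 and 4 with no filter, 155 and 198 with the block, 299 and 407 with quantile normalization again, 600 and 308 with centred arrays, 656 and 446 with trend and robust, 1476 and 907 with adjusted p below 0.1, and 0 with all probe sets. At 6 months, 3295 and 2727 became 2923 and 3059 with quantile normalization again. Leaving out 1 array gave 0 to 358 genes called at 2 months, 3670 to 5887 at 6 months, 0 to 319 for the difference of the genotype effects, 1390 to 4343 across ages (3809 with all arrays) and 1519 to 3160 by age in ENT1-null (3442). Mmp3, Adamts4, Adamts13, Adamts16, Mmp10, Mmp27 and Tnf, among the genes named, were below the filter at the 50th percentile and not tested there. List counts and values for list genes under these settings were added after seeing the data. With 2 arrays in a group, leaving out 1 leaves an array that is assumed to vary like the other groups.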
